A study of Mus musculus with 8 samples.

Results

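The 10 genes described here encode glutamate receptor subunits of mouse dorsal root ganglia: the AMPA receptor subunits Gria1, Gria2, Gria3 and Gria4, the kainate receptor subunits Grik1, Grik3 and Grik5, the NMDA receptor subunit Grin1, and the metabotropic receptors Grm7 and Grm8. They were taken by name, as a list put together with earlier results of these data known. All 10 were found among the 24421 genes of the count table and all 10 passed the filter on low counts, which kept 17328 genes. They were detected at every time point, at between 731 and 20424 read pairs per gene and library, and none of them changed significantly between any pair of time points during carrageenan inflammation of the hind paw. Every 95% interval of their log2 fold changes lay within 0.5 of 0, between a 0.77-fold and a 1.31-fold level.

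Glutamate is the fast excitatory transmitter of primary sensory neurons, whose cell bodies lie in the dorsal root ganglion and whose central terminals end in the spinal cord. AMPA, kainate and NMDA receptors are tetrameric cation channels opened by glutamate, whereas metabotropic receptors signal through G proteins, and those of the group that includes Grm7 and Grm8 inhibit adenylyl cyclase and, at terminals, transmitter release. On primary afferents, presynaptic kainate, NMDA and metabotropic receptors are known to adjust glutamate release, and peripheral receptors can excite or sensitise nociceptors in an inflamed tissue.

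The study profiled RNA of L3 to L5 ganglia from wild-type C57BL/6J mice by bulk RNA-seq. The deposited design gives their age at injection as 8 weeks, while the methods of the study give males over a wider range that starts at this age. The groups compared were 4: mice without an injection (0d), and mice killed 1, 3 or 30 days after 20 µL of 1% carrageenan, an irritant polysaccharide, was put into the left hind paw (1d, 3d, 30d). Each group had 2 libraries, and each library pooled the ganglia of 2 to 3 mice, so that differences between single animals were not seen. The controls had no vehicle injection, so that the needle and the irritant cannot be told apart, and the 0d group was the only untreated one for all 3 later times.

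The counts of a library summed to 44123208 to 73580338 over all genes, where a read pair that overlapped several genes was counted for each. The labels name the cell type as DRG neurons, and the summed level of 16 sensory neuron markers was 18600 to 20000 CPM (counts scaled to the library total with TMM factors), but 8 Schwann cell markers summed to 5720 to 11200 CPM and 8 satellite glia markers to 2640 to 3380 CPM, so the libraries held glial RNA as well. The sums were 121 to 156 CPM for 8 macrophage markers, 1150 to 1630 CPM for 8 endothelial and fibroblast markers, and 141 to 515 CPM for 5 red blood cell markers. They were 21.8 to 140 CPM for 8 skeletal muscle markers and 12.7 to 17.2 CPM for 8 spinal cord markers. The red blood cell markers Hba-a1 and Hba-a2 had the same mean and SD at every time point, so that sum does not rest on 5 separate values. In such bulk samples, fewer cells of a type and less RNA per cell cannot be told apart.

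Levels were compared between genes per length, as CPM per kilobase of annotated exon. Grik1, a kainate subunit that forms channels on its own and is known from small-diameter sensory neurons, had the highest level of the 10, at 78.2 ± 3.46 CPM per kilobase (mean ± SD, n = 8 libraries). This level stood above those of 94.7% of all tested genes. Grin1, the obligatory subunit of NMDA receptors, was next at 38 ± 2.24 CPM per kilobase (n = 8). Grik5, a kainate subunit with high affinity for glutamate that reaches the membrane only together with subunits such as Grik1, stood at 21.5 ± 0.56 CPM per kilobase (n = 8). Grm7 followed at 15.9 ± 0.691 and Gria4 at 14.6 ± 0.731 CPM per kilobase (n = 8 each). The remaining 5 genes lay close together, from Grm8 at 4.73 ± 0.343 CPM per kilobase, through Gria3 at 4.53 ± 0.386, Grik3 at 4.25 ± 0.365 and Gria2 at 3.82 ± 0.195, to Gria1 at 3.55 ± 0.226 (n = 8 each).

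The order of the upper genes did not depend on the library. The level of Grik1 was 2.06 times that of Grin1, that of Grin1 1.77 times that of Grik5, and that of Grik5 1.35 times that of Grm7, each in 8 of 8 libraries and with ranges that did not overlap. Grm7 and Gria4 could not be ordered beyond their spread, since Grm7 was higher in 7 of 8 libraries and the ranges overlapped. Gria4 was 3.09 times as high as Grm8 with no overlap, and below that step every neighbouring pair among Grm8, Gria3, Grik3, Gria2 and Gria1 had overlapping ranges. Levels per kilobase rest on the summed length of all annotated exons, which can exceed or fall short of the length of the transcript a cell makes. In another annotation, GENCODE, the longest transcript had 10371 bases for Gria2 and 4799 for Grm8, against the 7749 and 3678 used here. The choice of isoform was not measured.

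**Figure D1:**
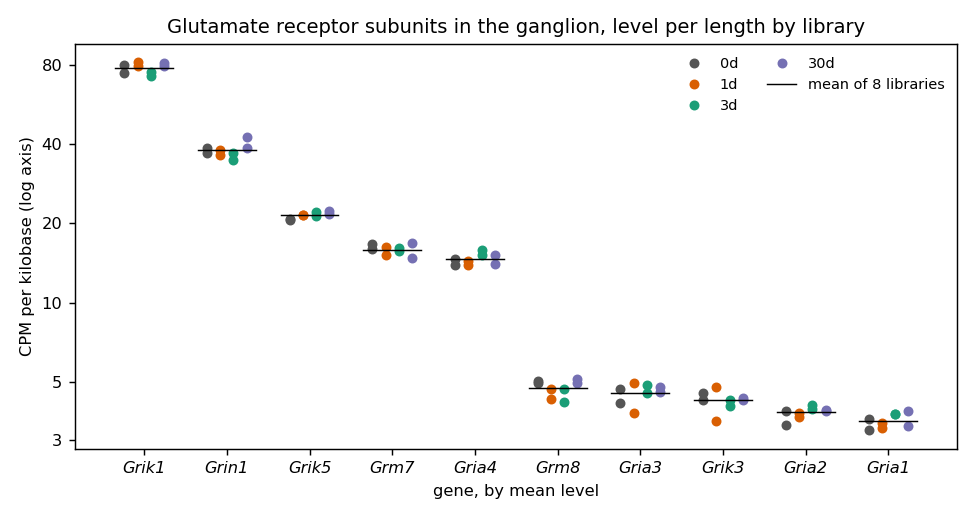
Level of the 10 glutamate receptor genes in CPM per kilobase (log axis) in each of the 8 libraries, coloured by time point, with the mean as a line. Grik1 lies at 72.7 to 82 CPM per kilobase and Gria1 at 3.26 to 3.86, and the 4 colours of each gene lie close together compared with the distances between the upper genes.

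Within the AMPA family, whose 4 subunits are all among the 10 genes, Gria4 made up 53.5% to 56.7% of the summed level per kilobase over the 8 libraries. Gria3 took 15% to 19%, Gria2, the subunit that makes AMPA receptors impermeable to calcium after RNA editing, 13.7% to 15%, and Gria1, a subunit known for activity-dependent trafficking, 12.3% to 14.4%. The summed AMPA level was 25 to 26.5 CPM per kilobase at 0d, 25.3 to 25.9 at 1d, 27.6 to 28.4 at 3d and 25.9 to 27.7 at 30d. The 3d libraries were thus above those of 0d and 1d and overlapped those of 30d, but the libraries of single genes were also apart in 39.5% of all tested genes at 3d against 0d and in 37.6% at 3d against 1d.

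In the kainate family, Grik1 made up 61.5% to 64.2% of the summed level per kilobase and Grik5 16.4% to 18.1%. Grik3, a low-affinity kainate subunit, had 2.85% to 3.81%. The family members outside the 10 genes were Grik4, a high-affinity partner subunit like Grik5, with 12.5% to 14.6%, and Grik2 with 1.84% to 2.77%. The summed kainate level was 118 to 128 CPM per kilobase over the 8 libraries, the highest of the 4 families, against 42.7 to 48.8 for NMDA, 29.4 to 32.4 for metabotropic and 25 to 28.4 for AMPA genes. The NMDA sum rests mostly on Grin1, whose count is shared in part with an antisense gene, and at the lower bound of Grin1 described below it was 28 to 30.4 CPM per kilobase, above the metabotropic sum in only 1 of 8 libraries.

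Among the NMDA genes, Grin1 made up 81.9% to 87.2% of the summed level per kilobase, or 72.4% to 79.2% at its lower bound. Grin3a and Grin3b, subunits that bind glycine, had 6.31% to 9.33% and 3.14% to 3.98%. Of the glutamate-binding partners that Grin1 needs for a glutamate-gated channel, Grin2d had the most, at 3.01% to 4.39%, and Grin2c had 0.189% to 0.659%. At the lower bound of Grin1 these shares were 10.2% to 14.2% for Grin3a, 4.79% to 6.06% for Grin3b, 4.86% to 6.69% for Grin2d and 0.288% to 1.02% for Grin2c. Grin2a had 0 to 13 read pairs and Grin2b 0 to 9 per library and neither passed the filter on low counts. Among the metabotropic genes, Grm7 made up 48.8% to 53.7% and Grm8 13.9% to 16.9%, with Grm4, of the same inhibitory group, at 29.1% to 32.7% between them. Grm6 had no read pair in any of the 8 libraries, and a count of 0 allows up to 3 read pairs, or 0.041 to 0.0684 CPM depending on the library.

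**Figure D2:**
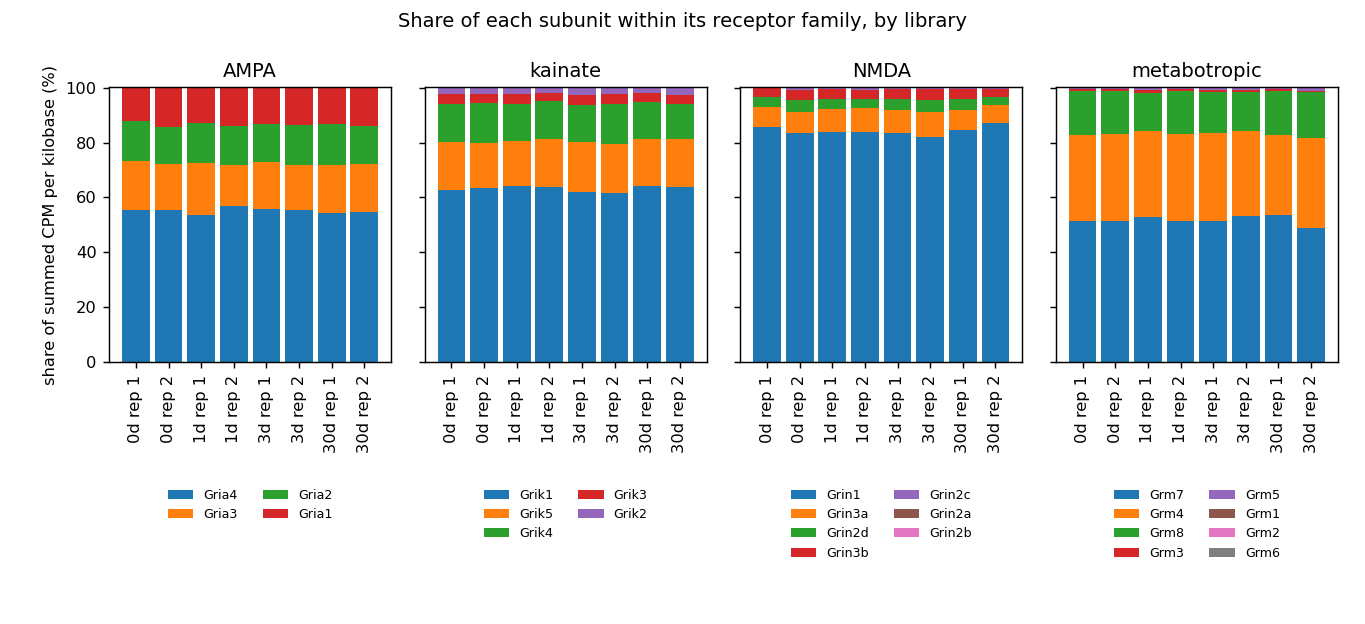
Share of each gene in the summed CPM per kilobase of its receptor family (percent, stacked to 100) in the 8 libraries. Gria4, Grik1, Grin1 and Grm7 hold the largest block of their family in each library, at 53.5% to 56.7%, 61.5% to 64.2%, 81.9% to 87.2% and 48.8% to 53.7%.

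The level of Grin1 carries an uncertainty that the others do not. Grin1 lies on the minus strand of chromosome 2, positions 25291177 to 25319187 of mm10, and 1324 of its 4372 exon bases, or 30.3%, are also exon of Grin1os, a transcript on the opposite strand, or of Lrrc26. Read pairs were counted without regard to strand and were given to every gene they overlapped, so reads of Grin1 and of its antisense partner cannot be told apart there. The count of Grin1os was 39.3% to 42.9% of that of Grin1, and the count of Lrrc26 0.6% to 0.953%. If all of these read pairs had also been counted for Grin1 and none came from it, 56.2% to 59.9% of its count would remain, at 20.3 to 23.9 CPM per kilobase. At that lower bound Grin1 exceeded Grik5 in only 5 of 8 libraries, so the order of these 2 genes holds for the counts as deposited and not at the bound. For the other 9 genes, at most 1.95% of the 50-base words of their transcripts (Grm7) occurred in a transcript of another gene, against 19.5% for Grin1.

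Over time, none of the 10 genes passed an adjusted p of 0.05 in any of the 6 pairwise comparisons or in the joint test for any time point (edgeR quasi-likelihood test, Benjamini-Hochberg over 17328 genes). The background was low as well. Of all tested genes, 0.346% were called at 1d against 0d, 0.219% at 3d against 0d, 0.0231% at 30d against 0d, 0.289% at 3d against 1d, 0.571% at 30d against 1d, 0.935% at 30d against 3d and 1.02% in the joint test. These shares moved with the processing, for example from 4 genes at 30d against 0d to between 0 and 184 over the alternatives that kept all libraries, and at 3d against 0d from 38 genes to 1 without 3d replicate 1 and 3 without 3d replicate 2. Against such rates a count of 0 among 10 genes is near the background and is no result about glutamate receptors in particular. At an unadjusted p under 0.05, 6 of the 60 member values passed, or 10%, where the share of all tested genes was 4.24% to 13% depending on the comparison. In the joint test 2 of 10 genes passed, against 11% of all tested genes. Both shares are near the background.

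The intervals say more than the calls. Of the 60 log2 fold changes, the largest in size was 0.184 (Grm8, 30d against 3d, SE 0.0972), all 60 intervals lay within 0.5 of 0, and 35 lay within 0.25 of 0. Leaving out 1 library moved the largest size to 0.314, that of Grik3 at 1d against 0d without 1d replicate 1 (-0.08 with all libraries), and without the same library Gria3 was 0.305 at 3d and 0.304 at 30d, both against 1d. The values of Grm8 itself ranged from 0.10 to 0.26 at 30d against 3d, without 3d replicate 2 and 1, and from -0.25 to -0.09 at 3d against 0d, without 3d replicate 1 and 2. The lowest bound was -0.38 (Grm8, 3d against 0d) and the highest 0.39 (Grm8, 30d against 3d). The median size of the members' log2 fold change was 0.0454 at 1d against 0d, 0.0843 at 3d against 0d and 0.0706 at 30d against 0d, where that over all tested genes was 0.0761, 0.0815 and 0.109. Relative to 0d, 3 of 10 genes had a log2 fold change above 0 at 1d, 5 at 3d and 8 at 30d, 4 of which (Gria1, Gria3, Gria4 and Grm8) were below 0 in a fit that left out a library. These 3 comparisons share the 0d libraries and are not independent of each other. At 30d against 1d all 10 were above 0, with a median size of 0.0514 where that of all tested genes was 0.11. Of these, Gria1, Gria3, Gria4, Grik1, Grik3 and Grm7 were below 0 in a fit that left out a library. At 3d against 1d and at 30d against 3d, 6 of 10 were above 0. Where the libraries of a pair of groups are said not to overlap, the same held for 31.9% to 46.4% of all tested genes, depending on the comparison.

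**Figure D3:**
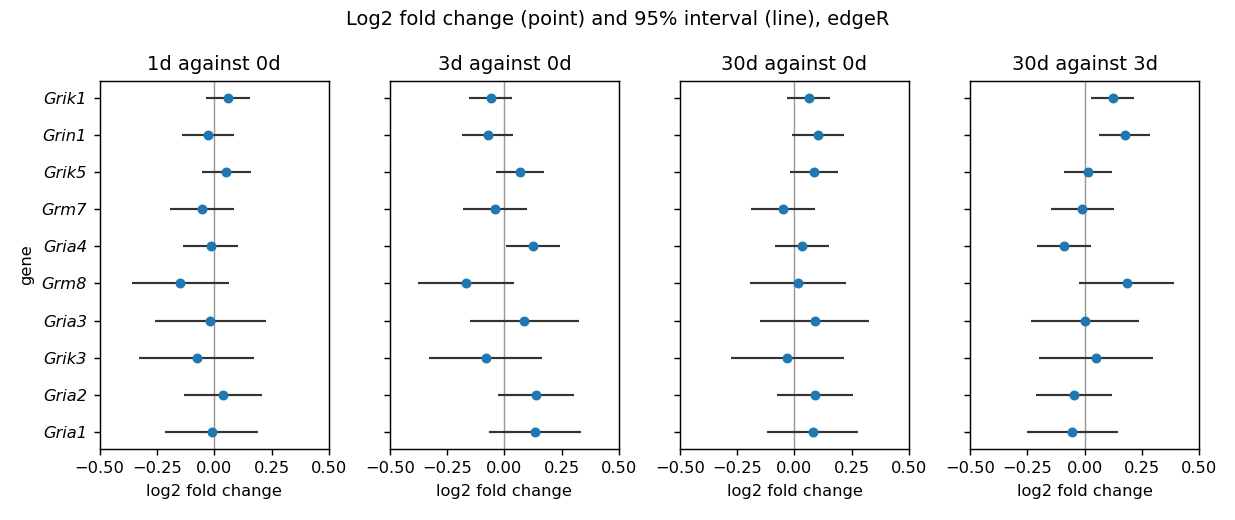
Log2 fold change (points) and 95% interval (lines) of the 10 genes at 1d, 3d and 30d against 0d and at 30d against 3d, from the edgeR fit. All lines stay inside -0.5 to 0.5, and the widest belong to genes of low level such as Gria3 and Grik3. The line of Gria4 at 3d against 0d and those of Grik1 and Grin1 at 30d against 3d lie above 0.

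Grin1 had the smallest p in the joint test (edgeR adjusted p = 0.373). Its level was 169 and 163 CPM at 0d, 159 and 166 CPM at 1d, 163 and 153 CPM at 3d, then 170 and 186 CPM at 30d. Both 30d libraries lay above the other 6, the lower of them by less than 1 CPM. The difference at 30d against 3d was 0.17 ± 0.05 on the log2 scale (SE, 95% interval 0.06 to 0.29, edgeR adjusted p = 0.153), and at 30d against 0d it was 0.10 ± 0.05 (edgeR adjusted p = 0.453), with 0.16 without 30d replicate 1 and 0.03 without 30d replicate 2. Without 30d replicate 1 the 30d against 3d difference was 0.24 with an adjusted p of 0.0328 (edgeR), a p that compares a single 30d library and assumes that it varies like the other groups. The 2 libraries of 30d were the least alike pair (correlation of log2 CPM 0.979), and replicate 1 had 5720 CPM of Schwann cell, 515 CPM of red blood cell and 113 CPM of skeletal muscle markers, against 8080, 276 and 21.8 CPM in replicate 2. The part of these markers in the Grin1 values was not tested. Across all the alternatives the 30d against 3d difference ranged from 0.11 to 0.24 with adjusted p from 0.0328 to 0.805. With the counts of Grin1os and Lrrc26 taken off, a step added after the data were seen, the difference was 0.17 (edgeR adjusted p = 0.175), and that of Grin1os itself was 0.17 (edgeR adjusted p = 0.326).

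Grik1, on the minus strand of chromosome 16 (87895897 to 88290258), had 273 and 293 CPM at 0d, 300 and 290 CPM at 1d, 277 and 266 CPM at 3d, then 299 and 292 CPM at 30d. The 3d libraries lay below those of 1d and 30d and overlapped those of 0d, which differed from each other by about as much as the groups did. The log2 difference was -0.12 ± 0.04 at 3d against 1d (SE, edgeR adjusted p = 0.808) and 0.12 ± 0.04 at 30d against 3d (edgeR adjusted p = 0.255). Neither passed the threshold.

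Gria4, on the minus strand of chromosome 9 (4417893 to 4796234), had 90.2 and 85.3 CPM at 0d, 85.2 and 88.3 CPM at 1d, 97.5 and 93.7 CPM at 3d, then 86.4 and 93.3 CPM at 30d. Its 3d libraries were the highest of the 8, with the upper 30d library only just below them. The log2 difference was 0.12 ± 0.05 at 3d against 0d (SE, edgeR adjusted p = 0.794) and 0.14 ± 0.06 at 3d against 1d (edgeR adjusted p = 0.948).

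**Figure D4:**
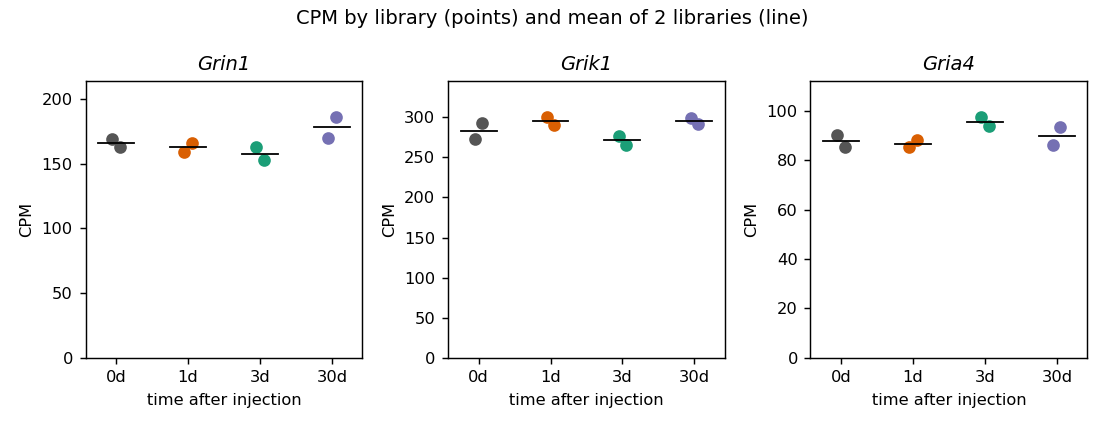
CPM of Grin1, Grik1 and Gria4 in each library (points) with the mean of the 2 libraries of a time point (line), on axes that start at 0. The 30d points of Grin1 (170 and 186) and the 3d points of Gria4 (97.5 and 93.7) are the highest of their gene, whereas the 3d points of Grik1 (277 and 266) overlap those of 0d (273 and 293).

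None of the other AMPA genes passed the test either. Gria1 (chromosome 11, 57011618 to 57330244, plus strand) ranged from 19.5 to 23.1 CPM, and its log2 difference at 3d against 0d was 0.13 (95% interval -0.07 to 0.33). Gria2 (chromosome 3, 80684936 to 80802791, minus strand) ranged from 26.5 to 31.4 CPM, with a difference of 0.14 at 3d against 0d (95% interval -0.03 to 0.30). Gria3 (chromosome X, 41401301 to 41678601, plus strand) ranged from 20.2 to 26.2 CPM, and both ends of that range were libraries of 1d. All 4 AMPA genes had a positive difference at 3d against 0d, between 0.09 and 0.14 on the log2 scale, and none passed the test. These values rested on single 0d libraries: Gria2 was 0.23 without 0d replicate 1 and 0.05 without 0d replicate 2, Gria3 0.18 and 0.000915, and Gria1 0.0666 and 0.21. The intervals reached up to a 1.26-fold level for Gria1 and a 1.23-fold level for Gria2. The 0d libraries, replicate 1 and 2, had alike neuron marker sums (19400 and 19300 CPM). Their Schwann cell markers summed to 11200 and 8220 CPM, endothelial and fibroblast markers to 1630 and 1150 CPM, and red blood cell markers to 141 and 282 CPM. The part of these markers in the AMPA values was not tested.

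Grik5 (chromosome 7, 25009851 to 25072369, minus strand) varied least, from 79.3 to 85.5 CPM, with a coefficient of variation of 2.61% over the 8 libraries. Its intervals against 0d were bounded by folds of 0.964 and 1.12 at 1d, 0.976 and 1.13 at 3d, then 0.986 and 1.14 at 30d. Grik3 (chromosome 4, 125490831 to 125714173, plus strand) varied most, with a coefficient of variation of 8.6%. It had 40.1 and 37.6 CPM at 0d, 42.3 and 31.2 CPM at 1d, 37.8 and 35.6 CPM at 3d, then 38.3 and 37.7 CPM at 30d. The highest and the lowest of these 8 values were the 2 libraries of 1d, as for Gria3. Of the 40 pairs of libraries that 10 genes and 4 time points give, these 2 were the only ones whose values differed by a ratio above 1.2, at 1.35 for Grik3 and 1.3 for Gria3. Counting error was 0.7% to 3.7% of a member's count, below both gaps.

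The metabotropic gene Grm7 (chromosome 6, 110645598 to 111567230, plus strand), a receptor of presynaptic active zones with low affinity for glutamate, ranged from 61.9 to 70.1 CPM, and the 2 libraries of 30d were its highest and its lowest. Grm8 (chromosome 6, 27275121 to 28134369, minus strand) had 18.1 and 18.5 CPM at 0d, 15.8 and 17.3 CPM at 1d, 17.2 and 15.4 CPM at 3d, then 18.2 and 18.8 CPM at 30d. Its libraries of 1d and 3d were below those of 0d and 30d without overlap. This grouping of time points was seen in the values, and its share among all tested genes was not measured. The log2 difference of Grm8 was -0.15 ± 0.10 at 1d against 0d, -0.17 ± 0.10 at 3d against 0d and 0.01 ± 0.10 at 30d against 0d (SE), and none passed the test. At 1d against 0d it was -0.09 without 1d replicate 1 and -0.22 without 1d replicate 2.

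Of the 16 other glutamate receptor genes of the mouse list, 12 passed the filter and none was called in any comparison. Grik4, at 17 ± 0.814 CPM per kilobase, and Grm4, at 9.65 ± 0.429 (n = 8 each), were the most abundant of them, so that Grik1, Grin1 and Grik5 were, as counted, the highest of all glutamate receptor genes measured. Grin3a was lower at 30d than at 3d by a log2 difference of -0.27 that did not pass (edgeR adjusted p = 0.152). Grin2a, Grin2b, Grm2 and Grm6 were not tested because of their low counts.

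Of 33 genes for auxiliary subunits, scaffolds and synaptic organisers of these receptors, all passed the filter and 2 were called, against 0.219% of all tested genes at 3d against 0d, 0.571% at 30d against 1d and 0.935% at 30d against 3d. Nptx1, a secreted neuronal pentraxin known to cluster AMPA receptors at synapses, had 271 and 276 CPM at 0d, 308 and 303 CPM at 1d, 348 and 342 CPM at 3d, then 269 and 250 CPM at 30d. It was higher at 3d than at 0d by 0.34 ± 0.04 (log2, SE, edgeR adjusted p = 0.0063) and lower at 30d than at 1d by a difference of -0.24 ± 0.04 (edgeR adjusted p = 0.0184) and than at 3d by a difference of -0.41 ± 0.04 (edgeR adjusted p = 0.000471). The groups of 0d, 1d and 3d did not overlap for this gene. Its call at 30d against 3d held in all 8 fits that left out a library (adjusted p up to 0.0243), but that at 3d against 0d was lost without 3d replicate 1 or 2 (adjusted p = 0.143 and 0.11, edgeR), and that at 30d against 1d was lost in 5 of the 8 (adjusted p up to 0.123, without 30d replicate 2), namely without either 1d library, either 3d library or 30d replicate 2. Nptxr, the membrane-bound pentraxin of the same complex, had 225 and 238 CPM at 0d, 260 and 274 CPM at 1d, 278 and 268 CPM at 3d, then 237 and 222 CPM at 30d, and was called at 30d against 3d, by -0.25 ± 0.05 (edgeR adjusted p = 0.0234). This call was lost without 3d replicate 1 or 2 or 30d replicate 2 (edgeR adjusted p = 0.433, 0.198 and 0.11). The most abundant genes of this list per length were Cacng7, an AMPA receptor auxiliary subunit, at 72.8 ± 2.12 CPM per kilobase, and Dlg4, the scaffold PSD-95, at 62.1 ± 2.04 (n = 8 each), and neither was called. The AMPA subunits themselves, beside these pentraxins, had the differences at 3d against 0d of 0.09 to 0.14 given above.

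All 18 genes for glutamate transport and metabolism passed the filter and none was called. Glul, glutamine synthetase of satellite glia, was the most abundant at 153 ± 16.2 CPM per kilobase, followed by the transaminase Got2 at 115 ± 3.71 and Slc17a7, the vesicular glutamate transporter VGLUT1, at 99.5 ± 6.4 (n = 8 each). Slc17a7 came closest to the threshold, with a log2 difference of 0.20 at 30d against 3d (edgeR adjusted p = 0.0728). It had 272.5 and 267.7 CPM at 3d, then 294.2 and 326.1 CPM at 30d, so the size of this difference depended on 30d replicate 2.

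Most sensory neuron markers did not pass the test either. Of 16 sensory neuron markers, 3 were called at 3d against 0d, where 0.219% of all tested genes were: Calca, the gene of the peptide CGRP, by 0.32 and the sodium channel gene Scn10a by 0.22 on the log2 scale, and Pvalb, a marker of proprioceptors, by -0.33 (edgeR adjusted p = 0.0237, 0.0499 and 0.0237). All 3 calls were lost without 0d replicate 1, 3d replicate 1 or 3d replicate 2, with adjusted p up to 0.453, 0.989 and 0.503, that of Pvalb also without 0d replicate 2 (0.0668), and that of Scn10a also without either 1d library (0.0643 and 0.0632). At 30d against 3d, Calca and the tachykinin gene Tac1 were called, where 0.935% of all tested genes were, by -0.42 and -0.28 (edgeR adjusted p = 0.00201 and 0.011). That of Calca held in all 8 fits that left out a library, and that of Tac1 was lost without 3d replicate 1 or 2 (adjusted p = 0.169 and 0.24). The summed level of the 16 markers was 19300 to 19400 CPM at 0d, 19200 to 19800 CPM at 1d, 19900 to 20000 CPM at 3d and 18600 to 18800 CPM at 30d, and satellite glia markers summed to 3320 to 3380 CPM at 0d and 2640 to 2900 CPM at 30d. Of the other markers, 3 were called, in comparisons where 0.0231% to 0.935% of all tested genes were. Apoe of satellite glia was called at 30d against 0d, 1d and 3d (-0.28, -0.21 and -0.23 on the log2 scale, edgeR adjusted p = 0.0322, 0.0213 and 0.0128). Cx3cr1 of macrophages was called at 3d against 0d and 1d (-1.02 and -0.75, edgeR adjusted p = 0.00794 and 0.0476). Myh1 of skeletal muscle was called at 1d and 3d against 0d and at 30d against 3d (-1.47, -1.61 and 1.35, edgeR adjusted p = 0.0324, 0.0237 and 0.0292). Each of these calls was lost without 3d replicate 1 and without 3d replicate 2. Cx3cr1 at 3d against 1d was also lost without either 0d or either 1d library. Myh1 at 1d against 0d was also lost without 0d replicate 1 or either 1d library, and at 3d against 0d without 0d replicate 1. Apoe at 30d against 1d was also lost without 1d replicate 2 or 30d replicate 1. The part of these markers in the members' values was not tested. Scaling every library to the 16 neuron markers, an alternative added after the data were seen, left all 10 genes uncalled, with Grin1 at 30d against 3d nearest to the threshold (log2 difference 0.23, edgeR adjusted p = 0.0625).

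For the 3 genes with the smallest p, the likeness of other genes was measured as the root mean square difference of log2 CPM over the 8 libraries, each gene centred on its own mean. Nearest to Grin1 were Rhof at 0.0242, B930041F14Rik at 0.0313 and Zer1 at 0.0319, where the median over all tested genes was 0.138. Nearest to Grik1 were Btbd9 at 0.0208, Ift46 at 0.0248 and Serp2 at 0.0257 (median 0.129). Nearest to Gria4 were Heatr5b at 0.0239, Lrrn3 at 0.0247 and Acaca at 0.0249 (median 0.13). No other glutamate receptor gene was among these 9. The profiles of the 3 genes had an SD of 0.0644 to 0.0833 on the log2 scale, and the distances describe 8 libraries and carry no test.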

How the data were processed

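RNA of 8 libraries, 2 per time point, was sequenced as read pairs. The authors used cutadapt 2.10 for trimming, STAR 2.7.5a for alignment to the mm10 genome and featureCounts 2.0.1 for counting per gene, and the deposited table holds these raw counts with each gene's exon length. Counts were tested with edgeR 4.0.16 (R 4.3.3): filterByExpr, TMM factors, a robust quasi-likelihood fit over all 8 libraries and Benjamini-Hochberg adjustment over 17328 genes, with a threshold of 0.05 (common biological coefficient of variation 8.85%). The filter left out 7093 genes. The fit was checked on simulated data with known changes. DESeq2 1.42.0, limma 3.58.1, other filters and scalings, a replicate block and leaving out each library were alternatives.

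The 10 genes and all lists (other receptors, auxiliary genes, transport genes, cell markers) were chosen with earlier results of these data known. All 10 were named, and the 3 with the smallest joint p were described in full because fewer than 3 were called. List genes were named where called or most abundant. The family shares and the values of Grin3a and Slc17a7 at 30d against 3d were picked after the values were seen. Libraries of a group are separate pools of mice. Summed counts per library were 44123208 to 73580338, and a read pair could count for several genes. Counting error covers sequencing alone, and with 2 libraries against 2 no rank test of a pair of groups could reach 0.05. Shared sequence was measured as 50-base words of GENCODE transcripts.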

Additional observations from a re-analysis of the deposited data

How the results depend on the processing

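Over 19 alternatives and 132 tests of a setting and a comparison, a member was called in 1, Grin1 at 30d against 3d without 30d replicate 1, so that the number called there lay between 0 and 1 over the fits that leave out a library and was 0 otherwise. Of the log2 fold changes of Grin1, Grik1 and Gria4 recomputed under alternatives, 313 kept their sign and 17 changed it, all for values of at most 0.0508 in size. Grik1 at 30d against 1d was -0.00298 with no filter on low counts, -0.000305 with limma-voom and -9.03e-05 with the compared groups alone. Leaving out single libraries gave -0.0248 to 0.0244. Such ranges for Grin1 were -0.0608 to 0.00391 at 1d against 0d and -0.0918 to 0.0005 at 3d against 1d, and those for Gria4 were -0.056 to 0.0259 at 1d against 0d, -0.023 to 0.0873 at 30d against 0d and -0.00658 to 0.104 at 30d against 1d. With a replicate block, no member was called and Grin1 at 30d against 3d was 0.17 (edgeR adjusted p = 0.141). The log2 CPM difference between replicates 1 and 2 correlated between time points at only -0.014 to 0.044. The block still raised the genes called, for example from 162 to 225 at 30d against 3d, so a shared replicate effect was not settled. Counts of called genes among all tested moved more than 1.5-fold. The alternatives that left out no single library were DESeq2, limma-voom, filters, scalings, no robust estimation, the block and the compared groups alone. The last of these used only the libraries of the compared groups and gave the upper ends at 3d against 0d and at 3d against 1d. Over these alternatives the counts were 39 to 110 at 1d against 0d (60 as reported), 20 to 121 at 3d against 0d (38) and 0 to 184 at 30d against 0d (4). They were 41 to 260 at 3d against 1d (50), 53 to 229 at 30d against 1d (99), 92 to 378 at 30d against 3d (162) and 113 to 512 in the joint test (177). Leaving out single libraries gave, in the same order, 26 to 111, 1 to 121, 1 to 202, 5 to 117, 51 to 359, 12 to 525 and 51 to 401, with 3d against 0d at 1 and 3 and 30d against 3d at 12 and 22 without 3d replicate 1 and 2. The cause was not tested. SEs of 0.0445 to 0.114 on the log2 scale limit what 2 libraries a group can show for these genes. Several calls named in the lists were lost under other settings too: Scn10a in 6 of 10 and Calca and Pvalb at 3d against 0d in 1 of 10 each. Nptxr at 30d against 3d and Nptx1 at 30d against 1d were lost in 2 of 10 each. Cx3cr1 at 3d against 1d and Myh1 at 1d against 0d held in only 6 of 10 each. Myh1 at 3d against 0d and 30d against 3d, and Apoe at 30d against 0d and 1d, held in 8 of 10 each.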
